A study of Mus musculus with 16 samples.

Results

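The difference between mice lacking Kmo and wild-type (WT) littermates was examined in inguinal white adipose tissue, the subcutaneous fat depot of the groin, with animals of both diets pooled. All 16 libraries of the series entered the comparison: 8 from Kmo-knockout (KO) mice and 8 from WT mice, chosen by genotype label. The mice were male and 6 to 7 months old, the deletion was in the whole body, and within each genotype 4 mice were fed chow and 4 were on a high-fat diet (HFD). Each library is labelled as a separate sample. The genotype difference was estimated in 1 model with diet as an additive term, so it is the difference between KO and WT at equal diet. Because a gene can miss a test's threshold for want of precision, the emphasis is on the size of change that the 95% interval of each gene still allowed.

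Kmo encodes kynurenine 3-monooxygenase, an enzyme of the outer mitochondrial membrane. Most tryptophan that is not built into protein is broken down to kynurenine, which Kmo turns into 3-hydroxykynurenine on the way to quinolinic acid and NAD. Kynurenine can instead be turned by kynurenine aminotransferases into kynurenic acid, a ligand of the G protein-coupled receptor Gpr35, and kynurenine itself can activate the aryl hydrocarbon receptor Ahr. In adipose tissue Gpr35 signalling has been linked to lipid metabolism and thermogenic genes, and Ahr to immune control, so genes of metabolism and of immune cells were examined as named lists.

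Kmo was almost absent from the KO libraries and present in every WT library. Its annotated span in GRCm38 (ENSMUSG00000039783) is chromosome 1, 175620381 to 175662116. WT chow libraries held 117, 236, 40 and 298 read pairs of Kmo and KO chow libraries 2, 8, 3 and 3. WT HFD libraries held 42, 215, 69 and 90, and KO HFD libraries 1, 2, 2 and 1. The lowest WT library thus held 5 times the count of the highest KO library, and the groups did not overlap. In CPM (counts scaled to library size with TMM factors) the mean was 0.179 ± 0.153 in KO and 8.83 ± 6.18 in WT (SD, n = 8 each). Over both diets WT exceeded KO 48.6-fold, with a 95% interval of 22.3-fold to 106-fold, a log2 fold change of -5.60 (95% interval -6.73 to -4.48) and an adjusted p of 1.13e-04 in edgeR's quasi-likelihood test. The remaining reads are counted over all exons of the gene together, so the count does not show which exons they came from.

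**Figure D1:**
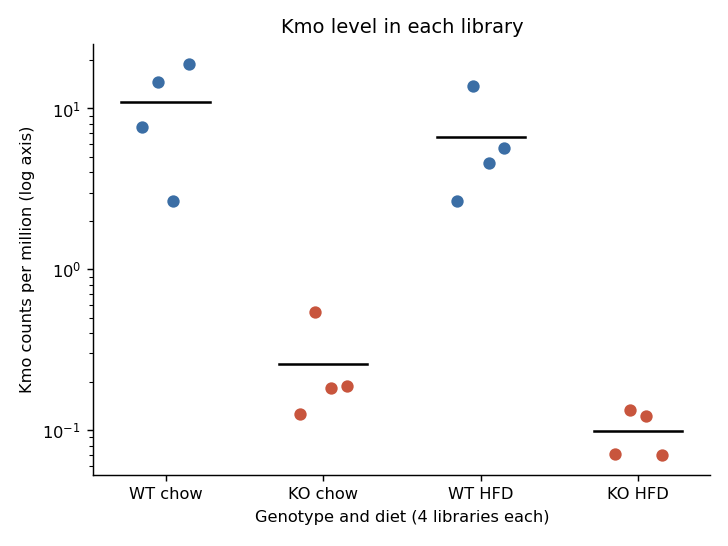
Kmo level in each of the 16 libraries, in CPM on a log axis, by genotype and diet. Each point is 1 library and each line the mean of 4. The 8 WT libraries lie between 2.66 and 19.02 CPM and the 8 KO libraries between 0.0697 and 0.542 CPM, with no overlap.

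Within the WT mice, Kmo itself varied between libraries on both diets. The highest WT values, 19.02, 14.7 and 13.7 CPM, came from the libraries WT chow 4, WT chow 2 and WT HFD 2. These libraries also had the highest lymphoid levels of the WT animals, given as the mean log2 CPM over the T cell and B cell lists: 5.48, 4.52 and 4.09. The lowest WT values, 2.66 and 2.67 CPM, came from WT chow 3 and WT HFD 1, whose lymphoid levels were 0.16 and 0.71. WT HFD 4 went another way, with 5.67 CPM of Kmo at the lowest lymphoid level of all, -0.30. The part of lymphoid cells in the Kmo level was not tested.

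The libraries held 13824404 to 16909361 counted read pairs, with overlapping ranges in KO and WT. Adipocyte markers were abundant in every library, with Adipoq, which encodes adiponectin, at 1610 to 3278 CPM and Plin1, which encodes the lipid droplet protein perilipin, at 1872 to 2852 CPM. Transcripts of other tissues varied widely within both genotypes. The skeletal muscle list (15 of 17 members tested) had a level of 0.265 to 5.30 in KO and 1.22 to 6.91 in WT, as mean log2 CPM, and 14 of its 15 tested members had an estimate below 0, with a median of -1.76, or -0.73 when replicate 3 of WT chow was left out. The mean level was 2.65 ± 2.09 in KO and 4.03 ± 2.05 in WT (SD, n = 8 each). The part of muscle in the differences of other genes was not tested. For some genes and lists a value with the muscle level as a covariate is given. Because the mean muscle level itself differed between the genotypes, such a value cannot separate muscle from genotype. The muscle markers Myh4 (1.63 to 1602 CPM) and Acta1 (7.80 to 911 CPM) were above 0 in every library. The lymphoid level ran from 0.041 to 5.25 in KO and from -0.30 to 5.48 in WT. In such bulk RNA, fewer cells of a type and less RNA per cell cannot be told apart. The alignment files of 12 libraries (7 KO, 5 WT) were merged over lanes and those of 4 (1 KO, 3 WT) came from a single lane, as their names in the file headers show.

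Kmo was the only gene of 16549 tested that passed an adjusted p of 0.05 between the genotypes (edgeR; 0.00604% of genes tested), and it was also the only gene whose 8 KO and 8 WT libraries did not overlap, again 0.00604%. The adjusted p of every other gene was 1. An unadjusted p under 0.05 was reached by 169 genes, or 1.02%. That count depended on single libraries: it was 324 without KO chow replicate 1, 300 without KO chow replicate 4, 291 without WT chow replicate 4 or without WT HFD replicate 4, and 111 without KO HFD replicate 4. Estimates were balanced, with 50.6% of the genes above 0 and a median log2 fold change of 0.0014.

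The 10 genes with the smallest unadjusted p after Kmo had log2 fold changes of -0.48 to 0.88. They were taken from genes with a mean of at least 1 CPM in a genotype, leaving out predicted genes. Ppfibp2, which encodes a liprin-family scaffold protein, had 7.25 to 9.54 CPM in KO libraries (median 8.11) and 8.55 to 13.2 CPM in WT libraries (median 11). Its log2 fold change was -0.41 (95% interval -0.64 to -0.18), and the ranges overlapped. Lrrc15, a membrane protein known from matrix-producing fibroblasts, had 0.976 to 5.5 CPM in KO libraries (median 1.93) and 0.399 to 3.32 CPM in WT libraries (median 1.33), with a log2 fold change of 0.88 (95% interval 0.35 to 1.42). The heterochromatin protein gene Cbx3 had 27.7 to 35.8 CPM in KO libraries (median 33.8) and 26.6 to 31.3 CPM in WT libraries (median 28) and a log2 fold change of 0.21 (95% interval 0.08 to 0.34). Ppfibp2 and Cbx3 thus had estimates below a 1.5-fold difference, Lrrc15 had few counts, and all 3 overlapped between the genotypes. The others were Atp6v1c2, a subunit of the proton pump of acid compartments (0.72), the dynein gene Dnah3 (0.61), the glutathione-degrading enzyme Chac1 (-0.48), the homeobox gene Hoxb4 (0.35), the transcription factor subunit Nfyb (0.19), the opsin Opn3 (-0.45) and Cmtm4 (0.23), all as log2 fold changes of KO over WT. Unadjusted p ran from 0.00173 for Ppfibp2 to 0.00709 for Cmtm4, and the adjusted p (edgeR) was 1 for each.

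Genes that lie close to Kmo on the chromosome were looked at as a group. Of 21 other genes of the count table that start within 1 Mb of the start of Kmo, 6 were tested, and none was called. All 6 estimates were below 0. Opn3, whose annotated start lies 305 bases beyond the end of Kmo, had the smallest p, with 11.3 to 21.3 CPM in KO libraries (median 14.5) and 13 to 28.9 CPM in WT libraries (median 19.5). Its KO values were lower at the median but overlapped with the WT values, and its log2 fold change was -0.45 (95% interval -0.76 to -0.14). Chml, which encodes a Rab escort protein and overlaps Opn3, had a log2 fold change of -0.29 (95% interval -0.55 to -0.03). Fh1, the fumarase of the citrate cycle, which overlaps the other end of Kmo, had -0.01 (95% interval -0.24 to 0.23). The estimates for Rgs7 and Exo1 were -0.20 and -0.25. Because reads were counted without strand, reads in stretches where these genes overlap cannot be told apart.

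How large a genotype difference the data still allowed was read from the 95% interval of each log2 fold change. An interval counted as inside 2-fold when both ends lay between -1 and 1, that is, when a doubling and a halving both lay outside it. This held for 14228 of the 16549 genes (86%), 10933 genes (66.1%) lay inside 1.5-fold, and 5026 (30.4%) inside 1.2-fold. The median half-width of the interval was 0.30. Precision followed the level of the gene: among genes under 1 CPM the median half-width was 0.82 and 41.5% lay inside 2-fold, from 1 to 10 CPM 0.49 and 81.9%, from 10 to 100 CPM 0.21 and 96.8%, and over 100 CPM 0.20 and 99.2%. Each interval holds for its own gene and not for all genes at once.

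Most genes of the metabolic lists were bounded inside 2-fold. Of 277 metabolic genes in 14 lists, 272 were tested, and 252 of these (92.7%) had an interval inside 2-fold, against 86% of all genes. Inside 1.5-fold lay 228 (83.8%, against 66.1%) and inside 1.2-fold 48 (17.7%, against 30.4%). Most members were well expressed: 244 had a mean of at least 10 CPM, and 239 of these lay inside 2-fold. That share was near those of all genes at such levels, 96.8% from 10 to 100 CPM and 99.2% over 100 CPM. Inside 1.2-fold lay 50.2% of all genes from 10 to 100 CPM and 54.7% over 100 CPM. Both shares exceed the 17.7% of the metabolic genes, so few of these were bounded that closely. Without Kmo, the 271 estimates ran from -0.86 to 0.51. An estimate above 0 was found for 196 of the 272, against 50.6% of all genes, with a median of 0.06 on the log2 scale. Besides Kmo, only Ppargc1a and Ldhb had an interval that did not include 0, which makes 3 of 272 with an unadjusted p under 0.05, against 1.02% of all genes.

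Genes of the kynurenine pathway and of NAD synthesis showed no called change besides Kmo. Of 20 members, Ido1, Ido2, Acmsd and Aadat had too few counts to be tested. Tdo2, which like the Ido enzymes carries out the first step from tryptophan, had a log2 fold change of -0.16 (95% interval -1.04 to 0.73). The aminotransferases Kyat1 and Kyat3, which make kynurenic acid from the substrate of Kmo, had 0.14 (95% interval -0.06 to 0.33) and 0.15 (95% interval -0.14 to 0.44). A Kyat1 increase beyond 1.26-fold and a Kyat3 increase beyond 1.35-fold therefore lay outside the intervals. The enzymes downstream of Kmo were measured loosely: Kynu had 0.01 (95% interval -2.22 to 2.23) and Haao 0.04 (95% interval -1.69 to 1.78), at mean levels of 1.43 and 7.71 CPM. Qprt, which turns quinolinic acid into an NAD precursor, had 0.09 (95% interval -0.97 to 1.15). Nampt, the main enzyme of the NAD salvage route and the member with the most FPKM (CPM divided by gene length in kilobases), had 86.7 to 239.8 CPM in KO libraries (median 111) and 71.8 to 156 CPM in WT libraries (median 109). The Nampt ranges overlapped from 86.7 to 156 CPM, and replicates 2 and 3 of KO chow, at 239.8 and 157 CPM, lay above every WT library. The interval of -0.12 to 0.41 left room for at most a 1.33-fold increase or a 1.08-fold decrease. In all, 11 of 16 tested members lay inside 2-fold, and those outside were Kmo, Kynu, Haao, Qprt and Tdo2.

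The receptors, transporters and targets through which kynurenine and kynurenic acid are sensed were examined next. Gpr35 was a low transcript, with 0.339 to 3.02 CPM in KO libraries (median 2.52) and 0.782 to 5.68 CPM in WT libraries (median 2.01). Its interval of -1.03 to 0.68 allowed up to a 1.6-fold increase or a 2.05-fold decrease, just past the 2-fold limit. Ahr had 8.02 to 17.1 CPM in KO libraries (median 9.88) and 8.06 to 14.1 CPM in WT libraries (median 10.5), and a difference beyond 1.27-fold upwards or 1.19-fold downwards lay outside its interval. Its dimer partner Arnt had the narrowest interval of the abundant metabolic genes, -0.07 to 0.15. Among Ahr target genes, Cyp1b1 had a log2 fold change of 0.0042 (95% interval -0.37 to 0.37), Tiparp 0.15 (95% interval -0.11 to 0.42) and Cyp1a1 0.06 (95% interval -0.86 to 0.99). Slc3a2, a subunit of the transporter that carries kynurenine across membranes, had 0.01 (95% interval -0.23 to 0.25). In this list 11 of 12 members lay inside 2-fold, and Gpr35 was the exception.

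No gene of fatty acid or triglyceride handling was called, and most were bounded inside 1.5-fold. All 20 genes of fatty acid synthesis lay inside 2-fold and 15 inside 1.5-fold, with 11 estimates above 0 over both diets, 4 on chow alone and 17 on HFD alone. Fasn, the fatty acid synthase, had 2183 to 13620 CPM in KO libraries (median 4879) and 2068 to 15030 CPM in WT libraries (median 6781). These ranges span both diets. On chow Fasn had 5013 to 13620 CPM in KO and 9828 to 15030 CPM in WT. On HFD Fasn had 2183 to 4746 CPM in KO and 2068 to 3735 CPM in WT. Its log2 fold change of 0.03 (95% interval -0.45 to 0.51) kept an increase beyond 1.43-fold and a decrease beyond 1.36-fold outside the interval. Scd1, the stearoyl-CoA desaturase and the member with the most FPKM (10150), had 0.12 (95% interval -0.31 to 0.55). The Scd1 estimate was -0.12 on chow (95% interval -0.73 to 0.50) and 0.35 on HFD (-0.26 to 0.97). Elovl6, which lengthens fatty acids, spread from 25.4 to 1218 CPM over all libraries, and its interval of -0.45 to 0.81 reached a 1.76-fold increase.

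Of the genes for triglyceride synthesis and storage 20 of 21 lay inside 2-fold, all but the low transcript Fitm1, with -0.86 (95% interval -2.59 to 0.87). Plin1 had 1872 to 2852 CPM in KO libraries (median 2554) and 1904 to 2648 CPM in WT libraries (median 2304), and changes beyond a 1.26-fold increase or a 1.08-fold decrease lay outside its interval. The fatty acid carrier Fabp4 had 0.11 (95% interval -0.16 to 0.39). Of the lipolysis genes 13 of 14 lay inside 2-fold. Pnpla2, the triglyceride lipase, had 1859 to 3055 CPM in KO libraries (median 2152) and 1593 to 2784 CPM in WT libraries (median 2382) and a log2 fold change of 0.01 (95% interval -0.24 to 0.26). The hormone-sensitive lipase gene Lipe had 0.05 (95% interval -0.16 to 0.26). For both lipases, a 1.2-fold difference was about the largest that the interval allowed.

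No gene of fatty acid oxidation or heat production was called. In the fatty acid oxidation list 21 of 22 estimates were above 0, with a median of 0.13 and 21 of 22 inside 2-fold. All 22 estimates were above 0 on chow alone (median 0.22) and 8 of 22 on HFD alone (median -0.03), and no member was called for a genotype difference that depended on diet (edgeR). With the muscle level as a covariate the median over both diets was 0.05, and it was 0.03 when replicate 2 of KO chow was left out. In the 12 libraries merged over lanes it was 0.22. Acot2, a mitochondrial thioesterase, had 0.26 (95% interval -0.01 to 0.53), and Etfa, which passes electrons on from fatty acid oxidation, 0.09 (95% interval -0.15 to 0.33). Cpt1b, the muscle and brown fat form of the carnitine transferase, was low, with 0.142 to 1.76 CPM in KO libraries (median 0.579) and 0.2 to 1.92 CPM in WT libraries (median 0.439). The estimate was 0.38 (95% interval -0.47 to 1.23), and 0.04 with the muscle level as a covariate. Cpt1b was the 1 member outside 2-fold.

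Ppargc1a, a coactivator of mitochondrial and thermogenic genes, had the smallest unadjusted p of the metabolic genes after Kmo. It had 11.4 to 23.3 CPM in KO libraries (median 15.4) and 7.4 to 16.7 CPM in WT libraries (median 12.2), so the KO values were higher at the median while the ranges overlapped from 11.4 to 16.7 CPM. Its log2 fold change of 0.38 (95% interval 0.09 to 0.67) had an unadjusted p of 0.0136 and an adjusted p of 1 (edgeR). The estimate was 0.28 on chow (95% interval -0.14 to 0.70) and 0.48 on HFD (0.06 to 0.90). Ucp1, the uncoupling protein of thermogenic adipocytes, had 0.837 to 172 CPM in KO libraries (median 17) and 0.572 to 222 CPM in WT libraries (median 6.75). These ranges span both diets. On chow Ucp1 had 32.9 to 172 CPM in KO and 10.5 to 222 CPM in WT. On HFD Ucp1 had 0.837 to 1.1 CPM in KO and 0.572 to 2.99 CPM in WT. Its interval of -1.19 to 1.55 was the widest among abundant metabolic genes and allowed up to a 2.93-fold increase or a 2.28-fold decrease, so a doubling could not be told from no change. Among other thermogenic genes, Cox8b had 0.19 (95% interval -0.42 to 0.80) and the thyroid hormone activating enzyme Dio2 0.50 (95% interval -0.38 to 1.39). The fatty acid elongase Elovl3, at a mean of 5.01 CPM, had 0.10 (95% interval -1.75 to 1.94), an interval wider than that of Ucp1. Zic1 was not tested, and of the other 16 members 11 lay inside 2-fold and 9 had estimates above 0.

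The nuclear-encoded respiratory chain was bounded within small changes. All 31 members lay inside 1.5-fold and 12 inside 1.2-fold, with 27 estimates above 0 over both diets, 25 on chow alone and 16 on HFD alone. The median of this list was 0.05, and 0.13 in the 12 libraries merged over lanes. With single libraries left out it ran from -0.02 (replicate 2 of KO chow) to 0.10 (replicate 4 of KO chow). Cox6a1, the member of the list with the most FPKM, had 0.02 (95% interval -0.22 to 0.25), and the complex I subunit Ndufa9 0.09 (95% interval -0.07 to 0.26). All 13 mitochondrially encoded genes had estimates above 0, with a median of 0.18 and a range of 0.10 to 0.51. That median was 0.12 when replicate 2 of KO chow or replicate 3 of WT HFD was left out. In the 12 libraries merged over lanes it was 0.06, with 9 of 13 estimates above 0. None of them was called, and 12 of the 13 intervals lay inside 2-fold. The cytochrome oxidase gene mt-Co1 had 10680 to 35790 CPM in KO libraries (median 16600) and 10760 to 27830 CPM in WT libraries (median 16150) and a log2 fold change of 0.10 (95% interval -0.22 to 0.42). The gene mt-Atp8, counted at a mean of 1.65 CPM, was the 1 member outside 2-fold, with 0.51 (95% interval -0.16 to 1.18). Reads of mt-Atp8 cannot be told apart from those of the overlapping mt-Atp6, so this count does not show its transcript level.

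Glucose and insulin genes were bounded within small changes. Insulin signalling had 20 of 20 members inside 1.5-fold and 12 inside 1.2-fold, a share of 60% against 30.4% of all genes. Among all genes that share was 50.2% from 10 to 100 CPM and 54.7% over 100 CPM, so most of the contrast goes with level. Slc2a4, the insulin-responsive glucose transporter, had 165 to 301 CPM in KO libraries (median 232) and 135 to 396 CPM in WT libraries (median 232). The genotypes had nearly equal medians, and changes beyond 1.18-fold in either direction lay outside the interval over both diets. The Slc2a4 estimate was -0.21 on chow (95% interval -0.51 to 0.10) and 0.20 on HFD (-0.10 to 0.51). Within each diet, larger changes thus stayed inside the interval. The insulin receptor gene Insr had 0.09 (95% interval -0.06 to 0.24) and the kinase gene Akt2 0.09 (95% interval -0.06 to 0.24). The kinase genes Pik3ca (-0.13 to 0.11) and Pdpk1 (-0.14 to 0.11) were among the 3 narrowest intervals of abundant metabolic genes. Of the glycolysis and citrate cycle genes 27 of 28 lay inside 2-fold and 6 inside 1.2-fold. The exception was Pfkm, the muscle form of phosphofructokinase, with -0.51 (95% interval -1.14 to 0.13). Ldhb, a lactate dehydrogenase subunit, had 76.4 to 161 CPM in KO libraries (median 96.9) and 47.9 to 118 CPM in WT libraries (median 86.8), a log2 fold change of 0.28 (95% interval 0.02 to 0.54) and an adjusted p of 1 (edgeR).

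Adipocyte factors, branched-chain amino acid breakdown and cholesterol synthesis complete the metabolic lists. Pparg, the transcription factor that drives adipocyte formation, had 172 to 337 CPM in KO libraries (median 221) and 165 to 296 CPM in WT libraries (median 206) and a log2 fold change of 0.06 (95% interval -0.17 to 0.30). Adipoq had -0.09 (95% interval -0.33 to 0.16), so a decrease of adiponectin RNA beyond 1.26-fold lay outside the interval. Lep, which encodes leptin, had 844 to 6255 CPM in KO libraries (median 2686) and 622 to 4991 CPM in WT libraries (median 3014), and its interval of -0.50 to 0.55 allowed up to a 1.47-fold increase. Of the 20 adipocyte factors 16 lay inside 2-fold, and Lepr, Apln and Fgf21 were among the exceptions. All 19 genes of branched-chain amino acid breakdown had estimates above 0, from 0.04 to 0.13, and all lay inside 1.5-fold, with the carboxylase gene Pccb at 0.13 (95% interval -0.09 to 0.34). With the muscle level as a covariate the median of these 19 moved from 0.10 to 0.04. In the 12 libraries merged over lanes it was 0.18. Single libraries moved it as well, down to 0.06 (replicate 4 of WT chow, 2 of WT HFD or 4 of KO HFD left out) or 0.04 (replicate 2 of KO chow), and up to 0.16 (replicate 4 of WT HFD). Cholesterol synthesis had 5 of 20 estimates above 0 over both diets, 3 on chow alone and 12 on HFD alone. It had 20 of 20 members inside 2-fold and Fdft1, the squalene synthase, at 0.18 (95% interval -0.10 to 0.46).

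**Figure D2:**
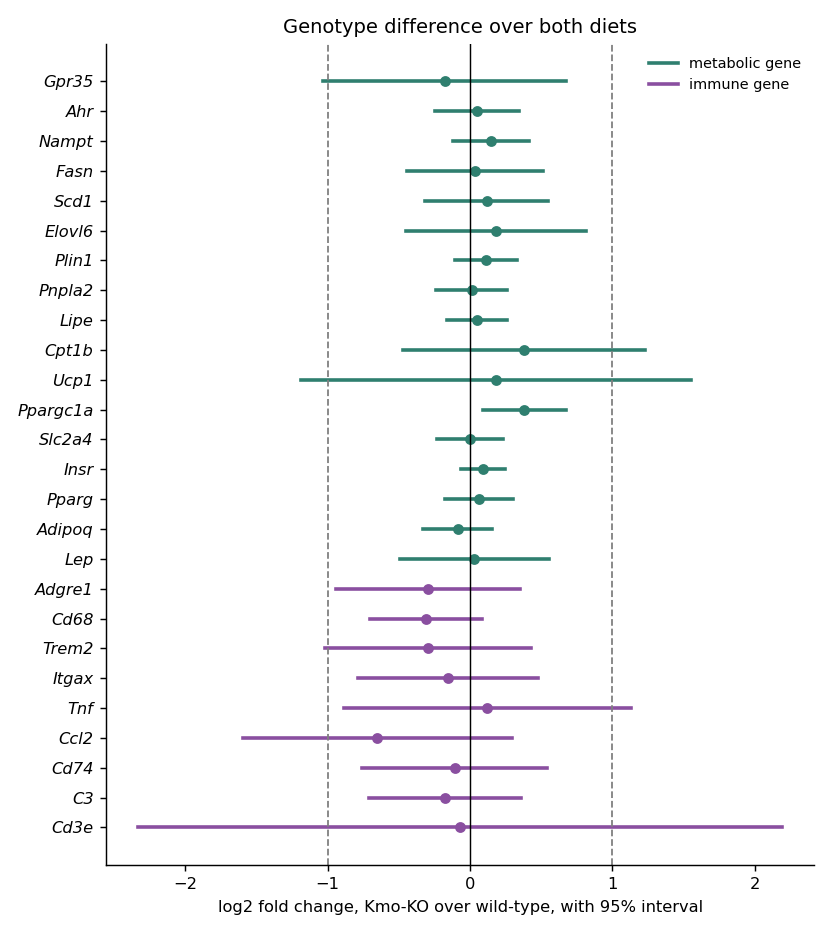
Log2 fold change of KO over WT with its 95% interval for 26 metabolic and immune genes, with dashed lines at a 2-fold decrease and a 2-fold increase. Of the 17 metabolic genes 14 lie inside the dashed lines and of the 9 immune genes 5. Cd3e has the widest interval.

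Among the 26 metabolic and immune genes set out by name in the plot of intervals, 19 lay inside 2-fold and 12 inside 1.5-fold. The 3 metabolic genes outside 2-fold were Gpr35, Cpt1b and Ucp1. The 4 immune genes outside it were Trem2, Tnf, Ccl2 and Cd3e, and 0 of the 9 immune genes lay inside 1.5-fold. Some genes outside the limit were low transcripts, such as Gpr35, Cpt1b and Tnf. Others spread widely between libraries of the same genotype and diet, such as Ucp1 on chow and Cd3e. Single libraries moved some of these genes across the 2-fold limit. Gpr35 lay inside it when replicate 4 of WT chow, 2 of KO chow or 2 of WT HFD was left out. For Trem2 the same held for replicate 2 of WT chow, replicates 2 and 3 of KO chow, replicate 3 of WT HFD and replicate 4 of KO HFD, each left out alone. Ccl2 came inside when replicate 3 of WT chow was left out. Adgre1 passed just outside, with its larger limit at 1.001 to 1.10 on the log2 scale, where 1 is 2-fold. This held for replicates 1, 3 and 4 of WT chow, 1 and 4 of KO chow, 1 and 4 of WT HFD and 2 of KO HFD, each left out alone.

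The immune lists were bounded less closely than the metabolic lists. Of 216 immune genes in 10 lists, 209 were tested, and 130 of these (62.2%) lay inside 2-fold, against 86% of all genes. Inside 1.5-fold lay 80 (38.3%, against 66.1%) and inside 1.2-fold 16 (7.66%, against 30.4%). No immune gene was called, and none had an unadjusted p under 0.05, against 1.02% of all genes (edgeR). Estimates above 0 were found for 53 of the 209, against 50.6% of all genes, with a median of -0.09. Of the 79 immune genes outside 2-fold, 36 belonged to the T cell and B cell lists. Without those lists 128 of 171 (74.9%) lay inside 2-fold, and among their 120 members with a mean of at least 10 CPM 105 did. Of all genes 96.8% did from 10 to 100 CPM and 99.2% over 100 CPM.

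Macrophage genes had estimates mostly below 0. In the macrophage list 18 of 19 estimates were below 0, with a median of -0.17 and 16 of 19 inside 2-fold. In the 12 libraries merged over lanes that median was 0.06 (7 KO and 5 WT libraries), so its direction turned there. Leaving out single libraries gave -0.36 (replicate 1 of KO chow), -0.26 (replicate 3 of WT chow, 1 of WT HFD or 1 of KO HFD) and -0.0036 (replicate 2 of WT chow). Adgre1, the marker F4/80 of mature macrophages, had 14.6 to 62.3 CPM in KO libraries (median 48.3) and 18.8 to 93.7 CPM in WT libraries (median 55.6). Its interval of -0.94 to 0.35 allowed up to a 1.92-fold decrease or a 1.28-fold increase. Cd68, a lysosomal protein of macrophages, had 19.3 to 50.3 CPM in KO libraries (median 40.7) and 29.3 to 72.7 CPM in WT libraries (median 47.3), so the KO values reached lower and the ranges overlapped. The estimate for Cd68 was -0.31 (95% interval -0.70 to 0.09), and an increase beyond 1.06-fold lay outside the interval. Fcer1g, a signalling chain of Fc receptors, had the smallest p of the list, at -0.29 (95% interval -0.58 to 0.0036). Lyz2, a lysozyme of myeloid cells, had -0.17 (95% interval -0.62 to 0.28).

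Lipid-associated macrophages, which gather around large adipocytes, were described by a list of 17 genes, of which 11 lay inside 2-fold and 16 had estimates below 0. Trem2, the lipid receptor that marks these cells, had 3.46 to 21.2 CPM in KO libraries (median 10.9) and 4.79 to 27.7 CPM in WT libraries (median 11.9). The Trem2 estimate of -0.30 (95% interval -1.02 to 0.43) was -0.04 with the muscle level as a covariate. Itgax, which encodes CD11c, had -0.16 (95% interval -0.79 to 0.48). The lysosomal protease gene Ctsd had -0.20 (95% interval -0.47 to 0.07), and the lipid carrier gene Apoe, the member with the most FPKM, -0.07 (95% interval -0.39 to 0.25). Gpnmb had -0.34 (95% interval -1.01 to 0.33), Spp1 -0.34 (95% interval -1.22 to 0.54) and Atp6v0d2 -0.51 (95% interval -1.42 to 0.39). For Trem2, Gpnmb, Spp1 and Atp6v0d2 a 2-fold decrease lay within the interval, while an increase beyond 1.26-fold lay outside that of Gpnmb.

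Cytokine genes were mostly low in this tissue. Il6 had 28 read pairs over all 16 libraries and was not tested. Tnf had 0.475 to 5.44 CPM in KO libraries (median 1.18) and 0.441 to 3.45 CPM in WT libraries (median 1.43), and its interval of -0.88 to 1.13 allowed a 2.19-fold increase as well as a 1.85-fold decrease. Il1b had -0.36 (95% interval -1.43 to 0.71) and Il33 -0.32 (95% interval -1.51 to 0.87). Signalling genes were bounded more closely: Rela, a subunit of NF-kappaB, had -0.01 (95% interval -0.16 to 0.14), Ifngr1, a chain of the interferon gamma receptor, -0.0044 (95% interval -0.19 to 0.19), and the inflammasome protease gene Casp1 -0.21 (95% interval -0.46 to 0.04). Of the 27 tested members of this list, 22 lay inside 2-fold.

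Chemokine genes had wide intervals, with 13 of 25 inside 2-fold and a median half-width of 0.84. Ccl2, the monocyte attractant, had 3.05 to 26.1 CPM in KO libraries (median 6.7) and 2.87 to 38.8 CPM in WT libraries (median 11.3). Its log2 fold change of -0.65 (95% interval -1.59 to 0.29) allowed up to a 3.02-fold decrease but only a 1.22-fold increase. That estimate rested on 1 library, since it was -0.13 without WT chow replicate 3, which also had the highest muscle level, 6.91. With the muscle level as a covariate it was 0.03. Ccl7, a related monocyte attractant, had the smallest p of the list at -0.81 (95% interval -1.83 to 0.21). The same WT library was its highest, with Ccl7 at 31.9 CPM against 2.87 to 4.69 CPM in the other WT chow libraries and 2.51 to 7.67 CPM in KO chow. Ccl8, the member with the most FPKM, had -0.33 (95% interval -1.18 to 0.52). Ccl19, which guides lymphocytes, had the widest interval of all metabolic and immune members, -2.44 to 3.25.

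The interferon and antigen presentation lists had the largest shares inside 2-fold of the immune lists. Of the interferon response genes 26 of 27 lay inside 2-fold, with Mx1 outside. Bst2 had -0.17 (95% interval -0.40 to 0.07) and Xaf1 -0.15 (95% interval -0.34 to 0.03). Of the antigen presentation genes 16 of 17 lay inside 2-fold. B2m, the light chain of class I molecules, had -0.09 (95% interval -0.30 to 0.11), H2-K1, a class I heavy chain, -0.14 (95% interval -0.32 to 0.04), and the loading factor Tapbp -0.02 (95% interval -0.17 to 0.13). Class I heavy chain genes are similar to each other, so counts of H2-K1 are uncertain where reads fit several copies. Cd74, the invariant chain of class II molecules, was measured more loosely, with 386 to 1214 CPM in KO libraries (median 553) and 356 to 1300 CPM in WT libraries (median 630.5) and an interval of -0.76 to 0.54. Ciita, the activator of class II genes, was the member outside 2-fold.

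Of the complement genes 14 of 16 lay inside 2-fold. C3, the central complement component, had 376 to 1363 CPM in KO libraries (median 575) and 517 to 1270 CPM in WT libraries (median 630.5) and a log2 fold change of -0.17 (95% interval -0.71 to 0.36). The haptoglobin gene Hp had -0.08 (95% interval -0.52 to 0.35), and the complement receptor gene C5ar1 -0.36 (95% interval -0.97 to 0.26). Saa3, an acute phase protein, was outside 2-fold at 0.64 (95% interval -0.60 to 1.88). Mast cell proteases had estimates below 0, with Cma1 at -0.48 (95% interval -0.97 to 0.01) and Mcpt4 at -0.31 (95% interval -0.84 to 0.22). In their list of natural killer, granulocyte, mast and dendritic cell genes 10 of 23 tested members lay inside 2-fold, with a median of -0.28. That median was -0.09, -0.14, -0.18 and -0.44 with replicate 4 of WT chow, 2 of WT HFD, 3 of KO HFD and 1 of KO HFD left out in turn.

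T cell and B cell genes could not be bounded in these 16 libraries. Cd3e, a chain of the T cell receptor complex, had 0.209 to 20.7 CPM in KO libraries (median 0.751) and 0.252 to 33 CPM in WT libraries (median 1.58), and Ms4a1, a membrane protein of B cells, 0.438 to 86.3 CPM in KO libraries (median 2.56) and 0.315 to 84.9 CPM in WT libraries (median 13.8). The highest library was 98.8 times the lowest for Cd3e among KO libraries and 131 times among WT libraries, and for Ms4a1 197 and 269.6 times. The genotypes overlapped in both genes. The interval of Cd3e allowed up to a 4.57-fold increase or a 5.03-fold decrease, and that of Ms4a1 a 6.03-fold increase or a 6.25-fold decrease. Of 38 tested T cell and B cell genes, 36 lay outside 2-fold, and the exceptions were the T cell receptor chain gene Cd247 and Ighm. Ighm, the heavy chain of immunoglobulin M, had 314 to 1539 CPM in KO libraries (median 951) and 446 to 1460 CPM in WT libraries (median 799.8) and an interval of -0.34 to 0.41. The median half-width was 2.04 in the T cell list and 2.52 in the B cell list, and these were 0.51 and 0.62 with the lymphoid level as a covariate, which is itself computed from these genes. The widest intervals among abundant immune genes were those of Fcmr, Cd79a and Ms4a1, all of B cells.

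**Figure D3:**
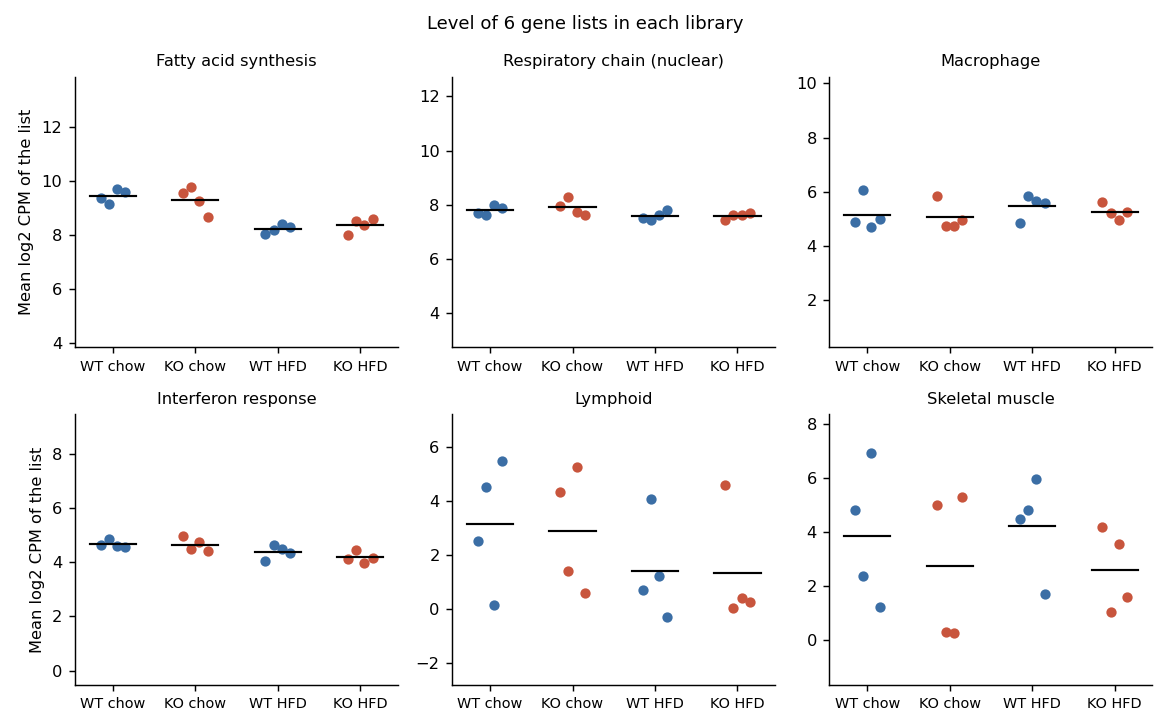
Level of 6 gene lists in each library, as mean log2 CPM of the list's tested members, by genotype and diet. All panels have axes of equal span, points are libraries (blue WT, red KO) and lines are means of 4. The lymphoid level spreads from -0.30 to 5.48 and the skeletal muscle level from 0.265 to 6.91, with both genotypes across most of that range.

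**Figure D4:**
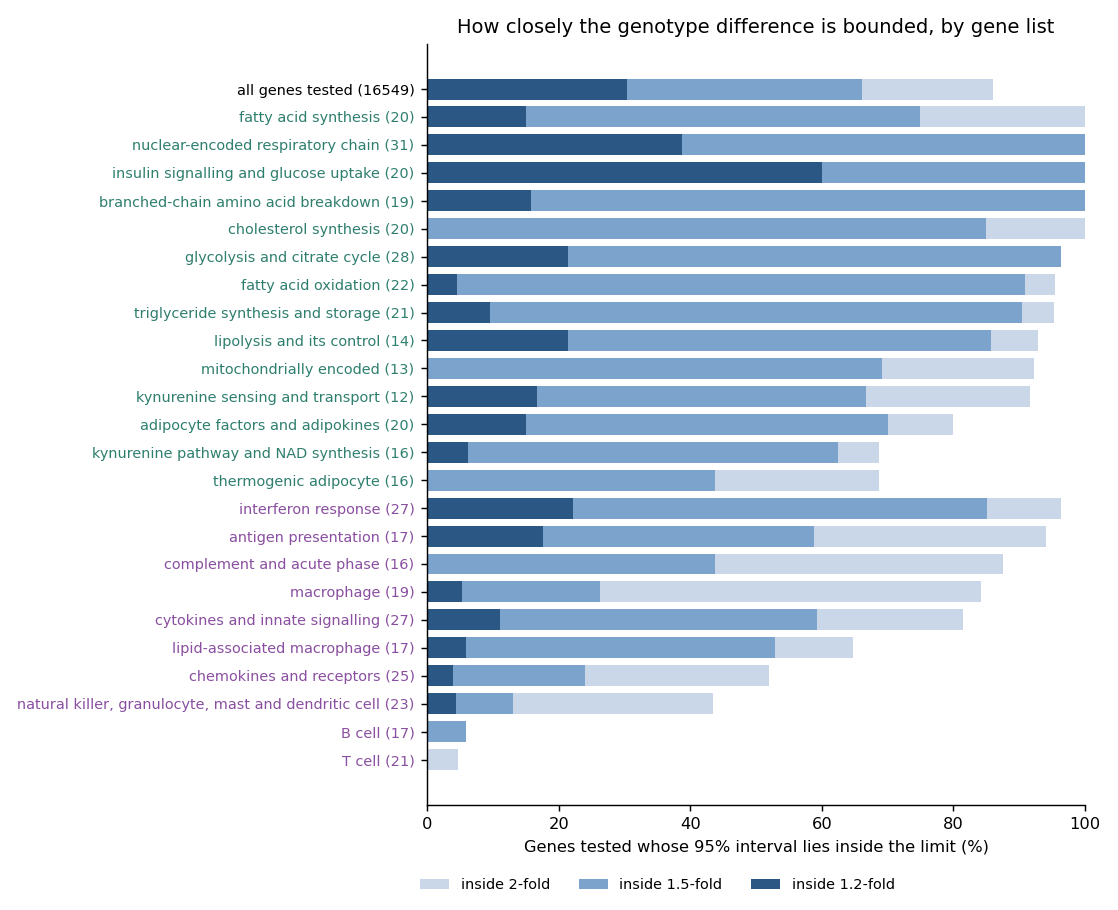
Share of the tested genes of each list whose 95% interval lies inside a 2-fold, 1.5-fold and 1.2-fold difference, with the number tested in parentheses. All genes are on top, metabolic lists follow in green and immune lists in purple. Fatty acid synthesis, respiratory chain, insulin signalling, amino acid breakdown and cholesterol synthesis reach 100% inside 2-fold, and T cell genes 4.76%.

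The directions of the small list medians were examined under other settings. Under relative log expression, upper-quartile and DESeq2 scaling, all 24 medians of the metabolic and immune lists kept their sign. Under limma-voom with quality weights 2 of the 24 turned, and in the libraries merged over lanes 4 turned. Over all 32 alternatives 11 of the 24 medians kept their sign throughout. With all 16 libraries no list median exceeded 0.28 in size in the additive edgeR model. The largest median among the alternatives was -1.90, for B cell genes in the merged libraries, and that list ran from -1.48 to 1.03 when single libraries were left out (replicate 1 of KO HFD and replicate 2 of WT HFD).

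Diet was estimated in the same model. Between HFD and chow 5680 of the 16549 genes were called (34.3%; edgeR, adjusted p under 0.05), 2902 higher on HFD and 2778 lower. For 5167 of them (91%) the whole genotype interval was smaller in size than the estimated diet change of the same gene. The call for diet itself selects changes larger than their error, and the standard errors of diet and genotype were within 1% of each other for 96.3% of the called genes. Such a share is therefore a description that follows largely from the call, and nothing is read from it. Of the metabolic genes 117 were called for diet, and for 108 the genotype interval was inside the diet change. Of the immune genes 45 were called for diet, and for 35 this held. Elovl6 fell on HFD by 3.91 on the log2 scale (adjusted p = 6.7e-06, edgeR), while its genotype interval reached 0.81. Ucp1 fell by 6.10 on HFD against a genotype interval that reached 1.55, and Fasn fell by 1.83 against 0.51. Lep rose by 1.91 on HFD, and its genotype interval reached 0.55.

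Some genes changed with diet by less than their genotype interval allowed. There were 9 such metabolic genes, among them Ppargc1a, Nadsyn1, Prkar2b, mt-Co2 and the fatty acid oxidation genes Acadvl, Hadhb, Echs1 and Acaa2. The 10 immune genes were the macrophage genes Adgre1, Cd68, Cd9 and Lgals3, the chemokine gene Ccl9, the interferon-induced genes Mx2 and Zbp1, H2-K1, Gzma and Csf3r. Adgre1, for example, rose on HFD by 0.88 (adjusted p = 0.0375, edgeR), and a genotype decrease of 0.94 was still within its interval. For these genes the genotype interval reached a difference as large in size as the diet change.

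**Figure D5:**
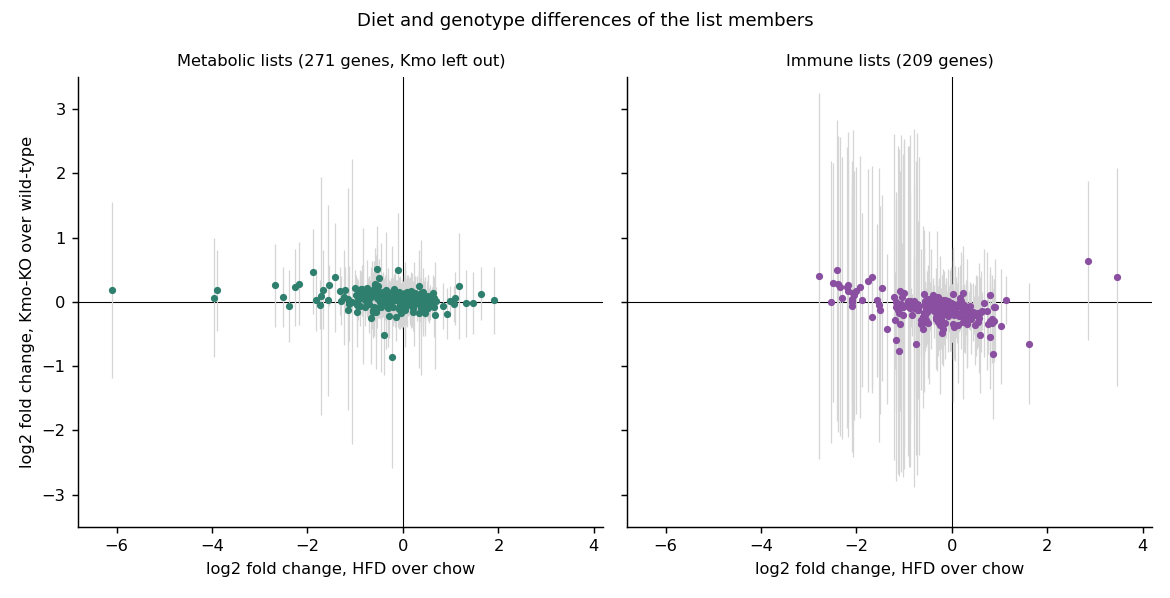
Genotype difference against diet difference for the tested members of the metabolic lists (271 genes, Kmo left out) and the immune lists (209 genes), as log2 fold changes from 1 model, with grey bars for the 95% interval of the genotype difference. The metabolic points spread along the diet axis to -6.10 for Ucp1 and stay between -0.86 and 0.51 on the genotype axis. The long grey bars in the immune panel belong mostly to T cell and B cell genes.

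Within each diet alone, where 4 KO and 4 WT libraries were compared, 1 gene was called on chow and 1 on HFD, Kmo in both cases (edgeR). The median half-width of the interval was 0.43 on chow and 0.44 on HFD, against 0.30 over both diets. The log2 fold change of Kmo was -5.38 on chow (95% interval -6.85 to -3.91) and -5.95 on HFD (-7.85 to -4.04). No gene was called for a genotype difference that depended on diet (edgeR interaction term), and 187 genes had an unadjusted p under 0.05 there. None of the 272 metabolic and 209 immune genes was called for it. Pooling the diets thus narrowed the intervals and assumed 1 genotype difference for both.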

How the data were processed

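Poly-A RNA of 16 libraries was sequenced as paired reads of 150 bases with a stranded mRNA kit, from RNA with integrity numbers above 7, per the labels' protocols. STAR 2.7.3a was the aligner and GRCm38.p6 the genome, per the submitters' processing notes. The deposited table holds raw counts of read pairs for 55487 genes, made by the authors with featureCounts 2.0.3 on Ensembl annotation 102 without using strand, per the file headers. Gene lengths in the deposited table were used for FPKM. Symbols were matched for 55141 gene IDs and 346 had none.

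In edgeR 4.0.16 (R 4.3.3), filterByExpr kept 16549 genes, TMM gave the scaling factors, and a robust quasi-likelihood model with diet and genotype as additive terms was fitted to all 16 libraries. Adjusted p-values are Benjamini-Hochberg values over these 16549 genes, and 0.05 was the threshold. The 95% intervals are the log2 fold change plus or minus the t quantile times its standard error from the same fit. List levels are means of log2 CPM (prior count 2) over tested members, with T cell and B cell genes joined in the lymphoid level. P-values set each difference against the spread between these libraries that the model's terms leave. The fit and its intervals were also run on counts simulated from the same edgeR fit. Such counts follow the model by design, so they do not show how well the intervals hold in the real libraries.

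The gene lists (14 metabolic, 10 immune and 7 of other cells or sample states), the named genes and the tests were chosen with earlier results of these data known. The rule names Kmo, the 10 genes with the smallest p and 27 other genes chosen by name. It also names the member of each metabolic and immune list with the most FPKM and that with the smallest p. To these come the 3 narrowest and 3 widest intervals per class among genes of at least 10 CPM. The gene within 1 Mb of Kmo with the smallest p completes the rule. Other genes were named after their values were seen. Values of some single genes are not reported here, while counts over lists include every tested member. Libraries of a group differed by more than sampling noise (lowest chi-square per gene between 2 libraries 9.82). Replicate numbers were not used to pair samples.

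Alternatives covered the scaling, the filter, DESeq2 1.42.0, limma-voom (limma 3.58.1), edgeR without robust fitting, group means, no diet term, a replicate block, lymphoid and muscle levels as covariates, 1 surrogate variable (sva 3.50.0), the merged libraries alone, other thresholds and limits, and leaving out each library. A term for single-lane libraries was added after seeing the data.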

Additional observations from a re-analysis of the deposited data

Results flagged for a closer look

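Among 120 sets of 4 libraries examined (named genes and list levels in each group), 9 (7.5%) held a library far from the other 3, and chance gives about 1 in 20. All values of genes are CPM. Elovl6 was 25.42 in WT HFD replicate 1 against 43.97 to 47.43 in the others. Pnpla2 was 2310 in WT chow replicate 4 against 2453 to 2472. Ppargc1a was 23.33 in KO chow replicate 2 against 14.97 to 15.96, and 17.43 in KO HFD replicate 4 against 11.42 to 12.25, so its highest value stood apart in both KO groups. Lep was 4097 in WT HFD replicate 4 against 4942 to 4991, and Itgax was 9.763 in the same library against 23.94 to 27.63. Cd68 was 61.94 in WT chow replicate 2 against 29.34 to 32.58.

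KO HFD replicate 1 stood apart in 2 results. Its Tnf was 2.478 against 0.9343 to 1.046, and its lymphoid level, as mean log2 CPM, 4.582 against 0.04075 to 0.4285. This library was one of the 4 from a single lane. Without it the call of Kmo remained (log2 fold change -5.54, adjusted p = 7.48e-04 in edgeR), and 125 immune genes had an interval inside 2-fold, against 130 with it.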

How the results depend on the processing

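Kmo was the 1 gene called in every edgeR and DESeq2 setting with a test. With limma-voom 0 genes were called (440 at an unadjusted p under 0.05, against 169 in edgeR and 185 in DESeq2), and Kmo had a log2 fold change of -5.34 and an adjusted p of 0.105. The cause was not tested. With a minimum fold of 1.2, 2315 genes were called for diet. Intervals adjusted by Bonferroni over all genes left 7820 genes inside 2-fold, 131 metabolic and 31 immune. A limit of 1.2-fold was met by 5026, 48 and 16, and one of 1.5-fold by 80 immune genes. Leaving out each library gave log2 fold changes of Kmo from -5.98 to -5.36, 13910 to 14147 genes inside 2-fold, 249 to 253 metabolic and 124 to 133 immune genes, and 4797 to 6103 genes called for diet. Between KO and WT samples of the same number and diet, deviations from the group means correlated above 0.1 in 2 of 8 pairs. The correlations ran from -0.69 to 0.42. This check showed no steady pairing by number, but it cannot exclude one. With the replicate number as a block, Kmo had a log2 fold change of -5.55 (adjusted p = 9.57e-06, edgeR) and 1 gene was called. Of 831 comparisons of the named genes' bounds, 786 stayed on the same side of 2-fold, 30 moved inside and 15 moved outside. Of genes under 1 CPM, those with the fewest counts, 41.5% lay inside 2-fold, and depth itself was not varied.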
